A study of Mus musculus with 8 samples.

Results

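The 44 genes described here encode nucleolar proteins that make ribosomes, and they were taken by gene symbol from a list set by function. The rule used no threshold on these arrays, but the list was drawn up with earlier results of these data known. Probes were assigned to them through the probe identifiers of the deposited normalized table. Of the 44 genes, 40 had a probe among the 16593 genes named on the array, and 34 were detected well enough to be tested among 7403 tested genes. Npm3, Wdr43, Polr1b and Noc2l are not analysed here.

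Ribosomes are assembled in the nucleolus. RNA polymerase I transcribes the ribosomal RNA precursor there, small nucleolar ribonucleoproteins (snoRNPs) modify it, and large sets of processing factors cut and fold it into the precursors of the small and large subunits. T cells enlarge their nucleoli and raise ribosome production when they leave the resting state to grow and divide, a step in which the transcription factor Myc is known to act.

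The T cells came from the spleen and lymph nodes of male C57BL/6 mice. The recipients carried tail skin grafted from BDF1 mice, except for the naive mice, which had no graft. Rejecting mice were untreated and were taken on day 7. Early tolerant mice (day 21) and tolerant mice (day 100) had received a transfusion of donor cells together with MR-1, an antibody against CD40L. All T cells, those of naive mice included, spent 20 to 21 hours in culture with bone marrow-derived dendritic cells of the donor strain and were then sorted as CD3+ cells by CD69, a surface protein that appears soon after activation. Each of the 4 states gave a CD69+ and a CD69- array, so every group had 1 array and no replicate. The sorting text of the labels writes both fractions as CD69+, and the fraction of each array was therefore taken from its title. The sources used here do not give the number of mice behind an array, and no array came from cells cultured without donor dendritic cells.

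On each Illumina MouseRef-8 bead array between 9593 and 10308 of 25697 probes were detected (37.3% to 40.1%). Mean raw intensities were 816 to 1038 on CD69+ arrays and 721 to 871 on CD69- arrays, and in every state the CD69+ array had the higher raw mean. Of 10 T cell marker genes with a probe, 9 were tested, and Cd8a was detected on fewer than 2 arrays. The summed signal of the 9 was 69583 to 94350 on CD69+ arrays and 148826 to 156494 on CD69- arrays. Of 19 dendritic and myeloid markers with a probe, 17 were tested, 16 rose and 1 fell in CD69+ cells. Their summed signal was 9502 to 58425 on CD69+ arrays against 5519 to 11634 on CD69- arrays. The defining markers Itgax and Itgam were each detected on fewer than 2 arrays. These marker sums move with the fraction contrast below, and their part in it was not tested. Of 5 B cell markers with a probe 1 was tested (CD69+ signals of 258 to 420.1, CD69- signals of 535 to 667), of 5 NK cell markers 2 (490.2 to 1429.5 and 1972 to 3183), and of 8 erythroid and granulocyte markers 3 (233 to 1036 and 287 to 1356). All 6 of those tested genes fell in CD69+ cells.

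The upstream sequences of 4 genes are shown because the genes differ in response and because 3 of them, all but Imp3, carry letters searched for below. Nop2 had the largest difference of the large-subunit factors, Nhp2 the largest of all 34 tested genes, Imp4 lay at the median of the small-subunit factors, and Imp3, whose protein sits in one complex with that of Imp4, did not pass the test. Each sequence covers the 250 bases before the gene's start in RefSeq (build GRCm38.p6, plus strand), and capitals mark CACGTG, the E-box that Myc and its partners can bind, and CCGGAAG, a core that ETS factors can bind. The windows lie at chr6:125131633-125131882 for Nop2, chr11:51619523-51619772 for Nhp2, chr1:34439579-34439828 for Imp4 and chr9:56937250-56937499 for Imp3.
Nop2: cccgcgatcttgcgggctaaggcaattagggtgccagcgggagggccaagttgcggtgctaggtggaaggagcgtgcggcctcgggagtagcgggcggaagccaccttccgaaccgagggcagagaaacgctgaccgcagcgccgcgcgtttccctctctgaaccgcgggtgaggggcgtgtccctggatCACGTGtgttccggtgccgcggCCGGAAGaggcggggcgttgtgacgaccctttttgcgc
Nhp2: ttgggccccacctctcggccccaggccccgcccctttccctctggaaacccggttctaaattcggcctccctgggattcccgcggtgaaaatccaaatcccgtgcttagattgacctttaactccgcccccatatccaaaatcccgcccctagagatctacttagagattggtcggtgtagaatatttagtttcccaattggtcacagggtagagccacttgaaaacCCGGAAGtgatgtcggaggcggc
Imp4: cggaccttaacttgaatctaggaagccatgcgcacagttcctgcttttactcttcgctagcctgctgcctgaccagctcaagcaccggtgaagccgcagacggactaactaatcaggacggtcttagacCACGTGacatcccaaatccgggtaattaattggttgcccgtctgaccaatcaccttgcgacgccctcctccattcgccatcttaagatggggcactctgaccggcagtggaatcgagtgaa
Imp3: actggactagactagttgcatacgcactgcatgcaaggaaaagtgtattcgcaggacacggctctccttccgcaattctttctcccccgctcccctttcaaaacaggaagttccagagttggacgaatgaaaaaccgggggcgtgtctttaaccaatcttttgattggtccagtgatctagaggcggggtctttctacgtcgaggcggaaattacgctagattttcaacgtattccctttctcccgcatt

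The letters CACGTG (the same on both strands) were present in 18.6% of the 43 promoters of 39 list genes found in the RefSeq promoter table, a window of 250 bases before to 50 after the start. They were present in 10.3% of the 7881 promoters of tested genes and in 7.15% of all 32851 promoters. The 8 list genes that hold them are Imp4, Ltv1, Mybbp1a, Nle1, Nop2, Pes1, Tsr1 and Wdr43. In Nop2 the E-box begins at position -60 from the start and in Imp4 at -121. CCGGAAG or its reverse complement CTTCCGG was present in 34.9% of the promoters of list genes, 19.0% of those of tested genes and 8.86% of all. For comparison, TATAAA or TTTATA was present in 6.98%, 7.12% and 13.6%. The 3 motifs were searched on both strands and do not overlap in letters. The 7 tested genes with CACGTG differed between fractions by a median of 1.37 on the log2 scale (1.27 to 2.17), and the 23 tested genes whose promoters lacked it by 1.49 (-0.27 to 2.56). A match is a description of letters, not of binding.

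The first comparison asked how the ribosome-making genes differed between the CD69+ and CD69- cells of a culture. Nearly the whole set was higher in the CD69+ fraction: 31 of the 34 tested genes rose, 1 fell and 2 did not pass. The median log2 difference was 1.51, against -0.04 over all 7403 genes tested. Of all genes tested, 73.3% passed the test, 35.2% higher and 38% lower, so calls were common in either direction. The test was limma's linear model on normalized log2 signals with recipient state as a block and Benjamini-Hochberg adjustment over all tested genes at 0.05. The 4 states stand in for replicates, so a p-value here speaks only to the steadiness of a difference over the states. In such bulk samples more cells of a type and more RNA per cell cannot be told apart.

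The differences were large against their spread. In 32 of 34 genes every CD69+ array lay above every CD69- array, which held for 31.7% of all genes tested, and in 32 the difference was above 0 in all 4 pairs (37.1% of all genes). At least 1.5-fold higher mean signals in CD69+ cells were found for 30 genes (27.8% of all genes) and at least 2-fold for 27 (17.3% of all genes). In 33 of the 34 genes the probe was detected on all 8 arrays. Ppan was not detected on the tolerant CD69- array, so its tolerant difference is partly set by signal below detection.

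**Figure D1:**
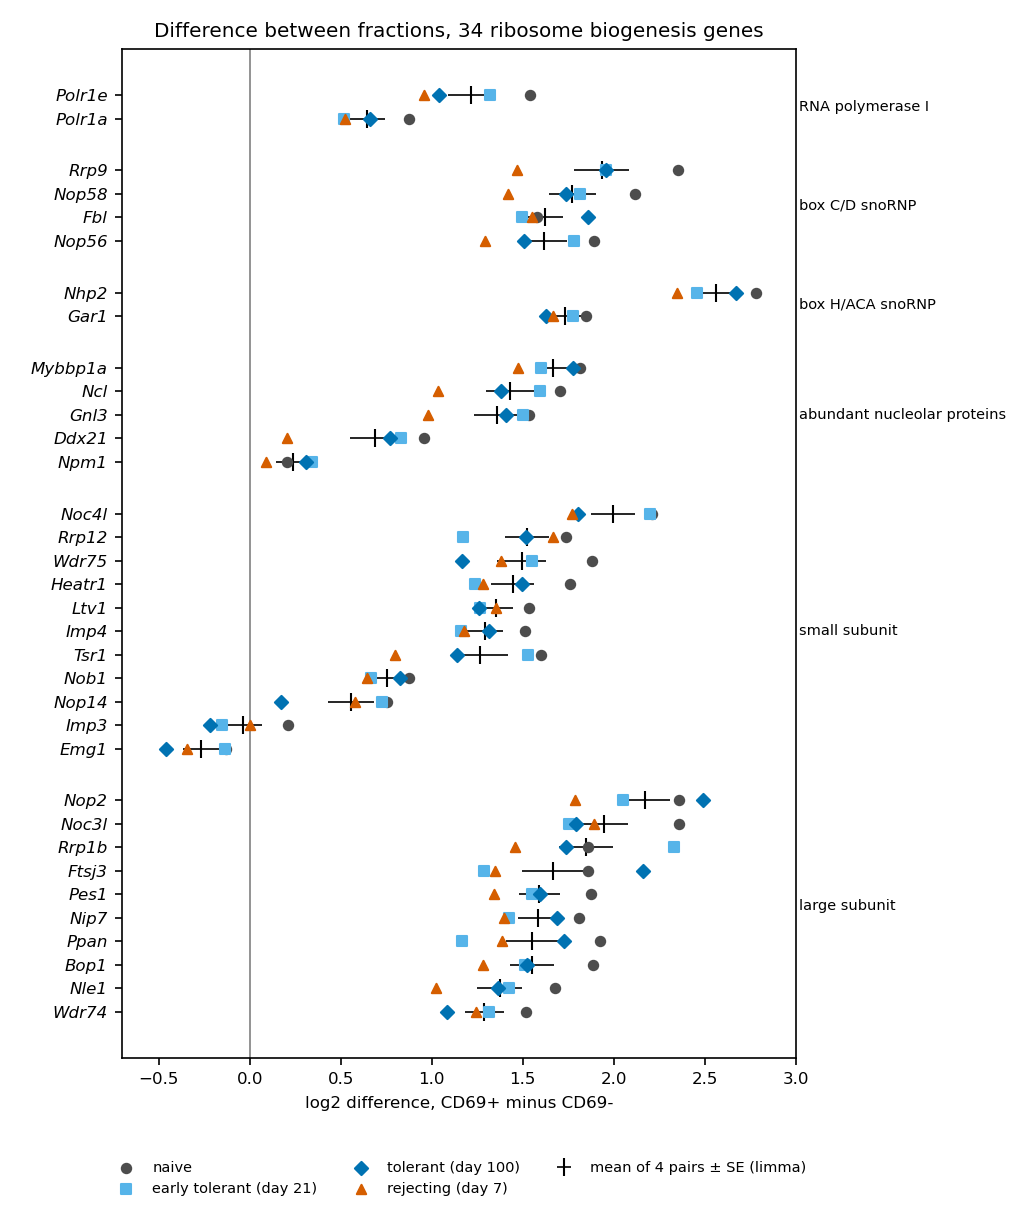
Log2 difference between CD69+ and CD69- cells (x axis) for the 34 tested ribosome biogenesis genes (y axis), grouped by role. Points are the 4 recipient states, and the black tick and bar are the mean of the 4 pairs and its SE in limma. All genes except Imp3 and Emg1 lie right of 0 in every pair, and the naive pair is the rightmost point for 29 of the 34 genes.

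RNA polymerase I was represented by 2 genes. Polr1a, its catalytic subunit, had normalized signals of 5018, 4377, 3797 and 4168 in CD69+ cells of naive, early tolerant, tolerant and rejecting mice, an order of states kept in the sentences that follow. In CD69- cells they were 2740.3, 3061, 2405 and 2905. The fractions did not overlap, but the difference was modest, with a log2 rise of 0.64 (SE 0.10, n = 4 pairs, adjusted p = 0.00127 in limma). Its other probes, both detected on all arrays, gave 0.38 and 1.02. Polr1e, an associated subunit, rose by 1.22 (SE 0.12, adjusted p = 0.000153), with CD69+ signals of 1763 to 2327 and CD69- signals of 762 to 944.

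The box C/D snoRNPs, which guide methylation of ribosomal RNA, rose as a set, with a median difference of 1.70. All 4 tested genes were called higher, where 35.2% of all genes tested were. Nop56, a core protein of the particle, had signals of 6346, 5568, 4951 and 3843 in CD69+ cells and of 1712, 1619, 1740.5 and 1567 in CD69- cells. It rose by 1.62 (SE 0.13, adjusted p = 4.88e-05 in limma). The CD69- arrays were nearly level, while the CD69+ arrays spanned a wider range with naive cells highest and rejecting cells lowest. Nop58, its partner in the particle, rose by 1.77 (SE 0.13), with CD69+ signals of 6445 to 9332 and CD69- signals of 2154 to 2441. Fbl, fibrillarin, the methyltransferase of the particle, was brighter on its probe at 15457 to 18879 against 5213 to 6027 and rose by 1.62 (SE 0.10). Rrp9, which binds the snoRNA needed for the first cleavages of the precursor, rose by 1.93 (SE 0.15), with 1226 to 2060.4 against 379.6 to 454.

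Of the box H/ACA snoRNPs, which guide pseudouridylation and also form part of telomerase, Nhp2 and Gar1 were tested. Nhp2, an RNA-binding core protein, had signals of 14637, 11095, 12654 and 11065 in CD69+ cells and of 2124, 2021, 1988 and 2173 in CD69- cells. At 5.92-fold (log2 2.56, SE 0.11, adjusted p = 1.07e-05 in limma) it had the largest difference of the 34 genes. A second and dimmer probe of Nhp2, detected on 4 arrays, gave 1.90. Gar1, another core protein, had signals of 16286, 16519.5, 12980.0 and 13217 in CD69+ cells and 4159 to 4813 in CD69- cells, a rise of 1.73 (SE 0.09). The probe of Dkc1, the pseudouridine synthase itself, was not detected on any array, so the data hold no level for it. Nolc1, a snoRNP chaperone, was detected on the naive CD69+ array alone, where its raw intensity was 179 against 104 to 150.2 on the others.

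Abundant nucleolar proteins split by size. Ncl, nucleolin, rose by 1.43 (SE 0.13, adjusted p = 9.63e-05 in limma), with signals of 5397, 4685, 4377 and 3158 in CD69+ cells and 1539.8 to 1679 in CD69- cells. Gnl3, nucleostemin, a GTPase of growing cells, rose by 1.36 (SE 0.12), and by 0.65 on its dimmer probe. Mybbp1a, a Myb-binding protein of the nucleolus, rose by 1.67 (SE 0.10). Ddx21, an RNA helicase of ribosomal RNA transcription and processing, rose by 0.69 (SE 0.14, adjusted p = 0.00397). Its difference was 0.96, 0.83 and 0.77 in naive, early tolerant and tolerant pairs and 0.21 in the rejecting pair, where the CD69- signal was 2416, the highest of that fraction.

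Npm1, nucleophosmin, a chaperone of ribosomal proteins, did not pass. Its signals were 38908, 38908, 36628 and 37758 in CD69+ cells and 33804, 30658, 29559 and 35508 in CD69- cells. They were the brightest of all tested list genes, and whether the bright end of the scale narrows a difference was not tested. The fractions did not overlap, with a log2 difference of 0.24 (SE 0.09, adjusted p = 0.0582 in limma), and the p-value ranged from 0.0075 to 0.486 over the alternatives. Npm1 passed under 7 of 12 alternative settings, and median scaling lowered its difference to 0.08.

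**Figure D2:**
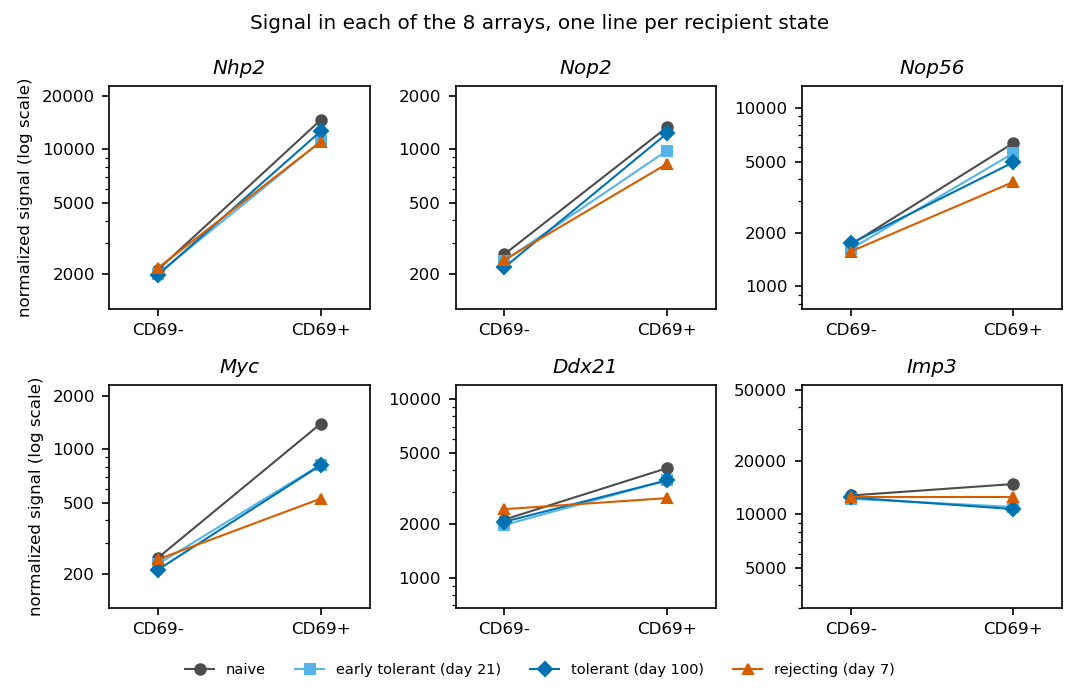
Normalized signal (y axis, log scale) in CD69- and CD69+ cells (x axis) for 5 list genes and for Myc, with 1 line for each recipient state. The Nhp2, Nop2, Nop56 and Myc lines lie close together in CD69- cells and are spread more widely in CD69+ cells, with naive cells at the top, while Imp3 stays between 10703 and 14780.4 on all 8 arrays.

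Processing factors of the small subunit were the most uneven set, with a median of 1.29. Of 11 tested genes 9 rose and 1 fell, where 35.2% of all genes tested rose and 38% fell. Noc4l, which works with Nop14 in the early precursor, rose by 2.00 (SE 0.12, adjusted p = 1.97e-05 in limma). Its signals were 3644, 3799.9, 2318 and 2607 in CD69+ cells and 663 to 829 in CD69- cells. Nop14 itself rose by 0.56 (SE 0.13, adjusted p = 0.00608), and its tolerant pair differed by 0.17, with 923 against 821. Heatr1 and Wdr75, which join transcription of the precursor to its first processing, rose by 1.44 (SE 0.12) and 1.49 (SE 0.13).

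Rrp12, a factor of subunit export, rose by 1.52 (SE 0.12). Late factors of the small subunit also rose: Ltv1 by 1.35 (SE 0.10), Tsr1 by 1.27 (SE 0.15) and Nob1, the nuclease that makes the final end of the small-subunit RNA, by 0.75 (SE 0.09). Nob1 had 1839.6 to 2250.3 in CD69+ cells and 1042 to 1388 in CD69- cells. The probe of Bysl, another late factor, was not detected on any array.

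Imp3 and Imp4 belong to a common complex that pairs the guide snoRNA with the precursor, but their probes differed. Imp4 had 7138, 6027, 6807 and 5375 in CD69+ cells and 2377 to 2734 in CD69- cells, and rose by 1.29 (SE 0.10, adjusted p = 5.37e-05 in limma). A further probe of Imp4 gave 1.44. Imp3 had 14780.4, 11006, 10703 and 12434 in CD69+ cells and 12755, 12228, 12434 and 12434 in CD69- cells. Its fractions overlapped, and the log2 difference was -0.04 (SE 0.11, adjusted p = 0.758 in limma), and its direction turned with median scaling and without the tolerant pair, to 0.04 and 0.02.

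Emg1, a methyltransferase of the small-subunit RNA, was the gene that fell. Its signals were 4860.0, 4391, 3929.5 and 4029 in CD69+ cells and 5318, 4822, 5397 and 5119.7 in CD69- cells. The lowest CD69- value lay just under the highest CD69+ value, so the fractions overlapped. The log2 difference was -0.27 (SE 0.10, adjusted p = 0.04998 in limma), at the threshold, and a second probe gave -0.21. The call ended with median scaling (-0.23), without the detection filter (-0.27), and without any 1 of the 4 state pairs (-0.31 to -0.20, adjusted p of 0.0736 to 0.157 in limma).

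All 10 tested factors of the large subunit rose, where 35.2% of all genes tested did. Their median was 1.59 and their range 1.29 to 2.17. Nop2, a methyltransferase of the large-subunit RNA also known as a proliferation antigen, had 1329, 984, 1228 and 829.5 in CD69+ cells and 258, 238, 218 and 240.4 in CD69- cells. It was 4.51-fold higher (log2 2.17, SE 0.14, adjusted p = 2.33e-05 in limma), and its 2 other probes gave 2.21 and 1.67. Noc3l, a factor of precursor transport, rose by 1.95 (SE 0.13), and Rrp1b by 1.85 (SE 0.15). Rrp1b was highest in early tolerant CD69+ cells, at 4901 against 3794 in naive, 2842 in tolerant and 2548 in rejecting cells, while its CD69- signals were 851 to 1044.

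Pes1 and Bop1 form a complex with Wdr12 that the large subunit needs for maturation. Pes1 rose by 1.59 (SE 0.11) and Bop1 by 1.55 (SE 0.12), with adjusted p of 3.54e-05 and 5.01e-05 in limma, but the probe of Wdr12 was not detected on any array. Ftsj3, a methyltransferase, rose by 1.66 (SE 0.17), Nip7 by 1.58 (SE 0.11), Ppan by 1.55 (SE 0.14), Nle1 by 1.37 (SE 0.13) and Wdr74 by 1.29 (SE 0.11). Nop16 was not detected on any array. Rrs1, which helps load a ribosomal protein complex, was detected on the naive CD69+ array alone, with a raw intensity of 171 against 97.9 to 131 on the others.

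Probes of the same gene that were detected on all arrays shared a direction, with differences of varied size. Of 15 tested genes with several probes, 12 had at least 2 that were detected on all arrays, and in all 12 the probes had the same direction. The largest gap between such probes was 0.71 on the log2 scale, for Gnl3, followed by 0.69 for Heatr1 and 0.64 for Polr1a. Probes not detected on any array gave 0.02 and -0.09 for Heatr1 and 0.59 and -0.06 for Nip7. With the mean of all probes Heatr1 rose by 0.88.

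The size of the rise was next compared across the 4 recipient states, with 1 pair of arrays each and so without a test. The median log2 difference of the 34 genes was 1.75 in the naive pair, 1.46 in the early tolerant, 1.50 in the tolerant and 1.32 in the rejecting pair. All genes tested had medians of -0.05 to -0.03 in the same pairs. At least 1.5-fold higher in CD69+ cells were 31 genes in the naive pair (28.7% of all genes), 30 in the early tolerant (27.9%), 30 in the tolerant (29%) and 28 in the rejecting pair (26.4%). The naive pair had the largest difference for 29 of 34 genes, against 24.3% of all genes and 34.8% of all genes that rose. The rejecting pair had the smallest for 19 genes, against 29.6% of all genes and 43.2% of those that rose.

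CD69+ cells were then set against naive CD69+ cells, which all 3 comparisons share. No gene of the set was 1.5-fold higher in early tolerant, tolerant or rejecting cells, where 4.69%, 6.7% and 6.59% of all genes were, and most lay slightly below the naive level. In rejecting CD69+ cells all 34 genes lay below the naive level, by a median of -0.44 and a range of -0.77 to -0.04 on the log2 scale, against a median of -0.01 over all genes. At least 1.5-fold lower were 6 of them, where 5.81% of all genes were. These were Ncl at -0.77 (3158 against 5397), Rrp9 at -0.75 (1226 against 2060.4), Nle1 at -0.74, Nop56 at -0.72 (3843 against 6346), Nop2 at -0.68 and Nop14 at -0.59. The lower level in rejecting cells was not particular to the set. Of 102 further tested genes of the pathway, described below, 91 lay below naive, with a median of -0.36, and 18 were at least 1.5-fold lower.

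In tolerant CD69+ cells the median was -0.30 (-0.65 to 0.07), with 32 of 34 genes below naive. Only Noc4l was 1.5-fold lower, at -0.65, where 4.48% of all genes were. In early tolerant CD69+ cells the median was -0.20 (-0.61 to 0.37), with 28 genes below naive, 5 above and Npm1 equal. Ftsj3 was 1.5-fold lower at -0.61, where 3.31% of all genes were, and Rrp1b stood highest at 0.37. The highest CD69+ signal was the naive one for 28 of 34 genes, against 23.3% of all genes and 33.7% of all genes that rose. The naive CD69+ array was also the brightest before normalization, and the part of this in the result was not tested. Without counting Npm1, whose naive and early tolerant signals were equal, the number was 27, and 28 with median scaling.

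Among grafted mice, rejecting CD69+ cells lay below tolerant ones by a median of -0.16, with 22 genes below and 11 above. Pes1 was 1.5-fold lower, at 571 against 879 (8.16% of all genes were that much lower and 7.39% higher). Against early tolerant cells the median was -0.24, with 29 genes below. At least 1.5-fold lower were Rrp1b at -0.94, Nle1 at -0.62 and Pes1 at -0.59 (6.78% of all genes were that much lower and 6.89% higher).

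CD69- cells showed no such order. The highest CD69- signal was the early tolerant one for 15 of 34 genes, against 23.3% of all genes. The lowest was the tolerant one for 15, against 23.9%. Medians against naive CD69- cells were 0.03 in early tolerant, -0.04 in tolerant and -0.03 in rejecting cells, against 0.02 to 0.03 over all genes. No gene was 1.5-fold apart from naive in any of them, where 4.35%, 6.23% and 8.09% of all genes were. Rejecting and tolerant CD69- cells had a median difference of 0.11 with none past 1.5-fold (10.1% of all genes), and against early tolerant cells Rrp12 alone was past it at -0.59 (8.39% of all genes). In Nop2 and Nop56 the states were spread more widely on CD69+ than on CD69- arrays, as the plot of signals shows. This did not hold for every gene. On the log2 scale Rrp12 ran from 11.38 to 11.82 on CD69+ arrays and from 9.71 to 10.30 on CD69- arrays.

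**Figure D3:**
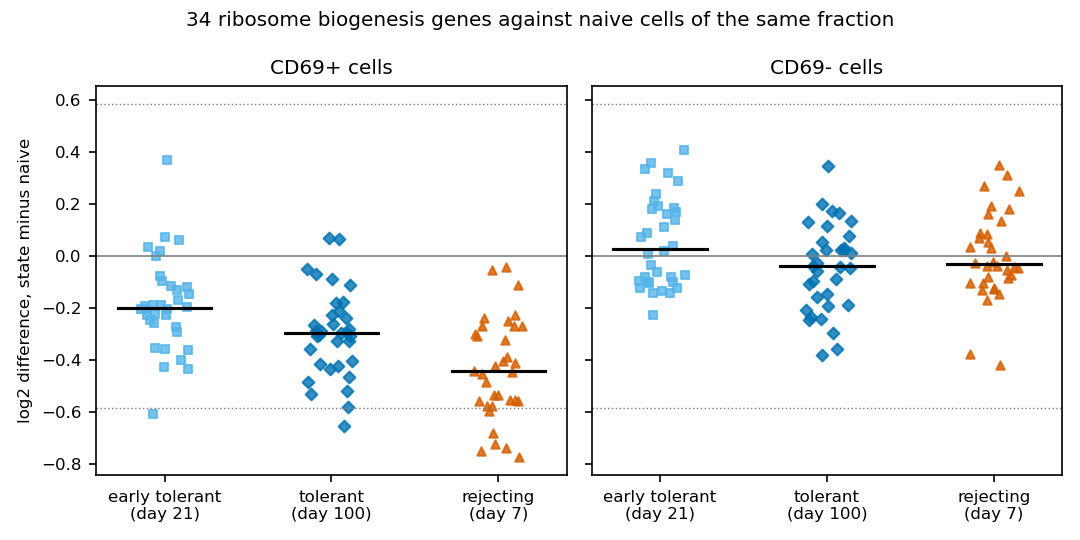
Log2 difference of each state from naive cells of the same fraction (y axis) for the 34 tested genes, in CD69+ (left) and CD69- cells (right), with black lines at the medians and dotted lines at 1.5-fold. Points of CD69+ cells lie mostly below 0, with medians of -0.20, -0.30 and -0.44, and those of CD69- cells lie around 0. The comparisons of a panel share 1 naive array.

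Marker sums also differed between the CD69+ arrays, and the rejecting array stood at one end of each sum given here. The summed dendritic and myeloid signal was 18007 in naive, 44095 in early tolerant, 58425 in tolerant and 9502 in rejecting CD69+ cells. The sum over 15 tested cell cycle genes, all of which rose in CD69+ cells, was 61168, 66721, 61649 and 55113 in the same order. Bright probes weigh most in such a sum. Gene by gene, 8 of the 15 lay below naive in rejecting CD69+ cells, with a median of -0.11 on the log2 scale. The T cell marker sum was 69583, 74317, 72802 and 94350, lowest in naive and highest in rejecting cells, and the NK cell marker sum was 666, 631, 490.2 and 1429.5. The sum over the 34 ribosome biogenesis genes was 216101, 194375, 184662 and 174668, highest in naive and lowest in rejecting cells. The part of other cells, of cell division and of the T cell share in the state differences was not tested.

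Myc, which is known to activate nucleolar genes, had signals of 1392, 821, 815 and 529.5 in CD69+ cells and of 247, 228, 212 and 242 in CD69- cells. It rose by 1.85 (SE 0.21, adjusted p = 0.000231 in limma). Like Nop56 and Ncl it was highest in naive and lowest in rejecting CD69+ cells, and its pair differences were 2.49, 1.85, 1.94 and 1.13. Of 8 tested genes of the Myc network, 2 rose and 4 fell, with a median of -0.37, where 35.2% of all genes tested rose and 38% fell. Max, the partner of Myc, had a difference of -0.08 (adjusted p = 0.445) and Mlx one of -0.08 (adjusted p = 0.657). Mxd4 and Mnt fell by 1.66 and 0.83 and Mga fell by 0.66. Mxi1 was at least 2.25-fold lower, since no CD69+ array detected it, and Mxd1 was at least 1.05-fold higher, since no CD69- array did. Such bounds set the undetected side at the lowest detected signal of each array.

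Further genes of the pathway, taken from lists chosen with earlier results of these data known, rose less uniformly. Of 102 such genes tested, 74 rose and 5 fell, where 35.2% of all genes tested rose and 38% fell. The median was 0.73, or 0.70 with undetected genes at their bounds. Among 31 other small-subunit factors 23 rose and 1 fell (median 0.75, or 0.69 with bounds), led by Nol10 at 1.97, Tbl3 at 1.91 and Pno1 at 1.87, while Utp25 rose by 0.36 and the helicase gene Ddx52 fell by 0.84. Nat10, an RNA acetyltransferase, was at least 1.40-fold higher. Among 37 large-subunit factors 27 rose and 1 fell (median 0.83). Mrto4, which holds the place of the stalk protein, rose by 2.77 and Ebna1bp2 by 2.20, Rrp15 by 1.96, Lyar by 1.78 and Rrp1 by 0.31, while Sbds, a late release factor, fell by 0.43.

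Assembly factors of snoRNPs rose in 9 of 10 cases (median 0.87), where 35.2% of all genes tested rose. Among them were the ATPase genes Ruvbl1 and Ruvbl2 at 2.10 and 1.83, Shq1 at 1.61, Snu13 at 1.42, Nop10 at 0.56 and Tgs1 at 0.36. Of 11 genes of the RNA exosome, which trims the precursors, 9 rose (median 0.68, or 0.53 with bounds). Mphosph6 rose by 1.99, Exosc2 by 1.59, Exosc5 by 0.86, Exosc10 by 0.50 and Exosc8 by 0.45, and the nuclease gene Dis3 was at least 1.34-fold higher.

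Other parts of the RNA polymerase I machinery were split, with 6 of 13 higher, 3 lower and a median of 0.44, where 35.2% of all genes tested were higher and 38% lower. The subunits shared with other polymerases rose: Polr2f by 1.82, Polr2h by 1.27, Polr2k by 0.95 and Polr2e by 0.71. Of the subunits shared with RNA polymerase III, Polr1c rose by 0.55 and Polr1d had a difference of 0.04 (adjusted p = 0.73). Of the subunits of RNA polymerase I alone, Cd3eap (Polr1g) rose by 0.62, Znrd1 (Polr1h) fell by 0.33 and Twistnb (Polr1f) had a difference of -0.12 (adjusted p = 0.385). Ubtf, which binds the ribosomal RNA gene, had a difference of 0.44 (SE 0.17, adjusted p = 0.0519 in limma), with 1.06 in the tolerant pair and 0.11 to 0.45 in the others. The selectivity factor gene Taf1d fell by 0.73, Taf1c was at least 1.80-fold lower, and Tcof1, treacle, had a difference of 0.02 (adjusted p = 0.886).

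The proteins built into cytosolic ribosomes had few genes that rose. Of 52 tested cytosolic ribosomal protein genes 3 rose and 15 fell, with a median of -0.10, where 35.2% of all genes tested rose and 38% fell. Rplp0 rose by 0.57, Rpl28 by 0.35 and Rps26 by 0.34, and Rpl22 and Rpl19 fell by 1.16 and 0.74. Ribosomal protein genes have many near-identical pseudogenes, so their probes are uncertain. The 52 genes were also bright, with summed CD69+ signals of 1889795 to 1960999, where the 34 nucleolar genes summed to 174668 to 216101. Rps26 had the same signal, 50794, in early tolerant, tolerant and rejecting CD69+ cells. Whether the bright end of the scale narrows such differences was not tested. Of 69 mitochondrial ribosomal protein genes 51 rose and 3 fell, with a median of 0.67, among them Mrps6 at 1.96, Mrps22 at 1.93, Mrpl15 at 1.91 and Mrps10 at 1.72, while Mrpl24 and Mrpl9 fell by 0.61 and 0.58. The difference between these lists and the nucleolar set was not tested.

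**Figure D4:**
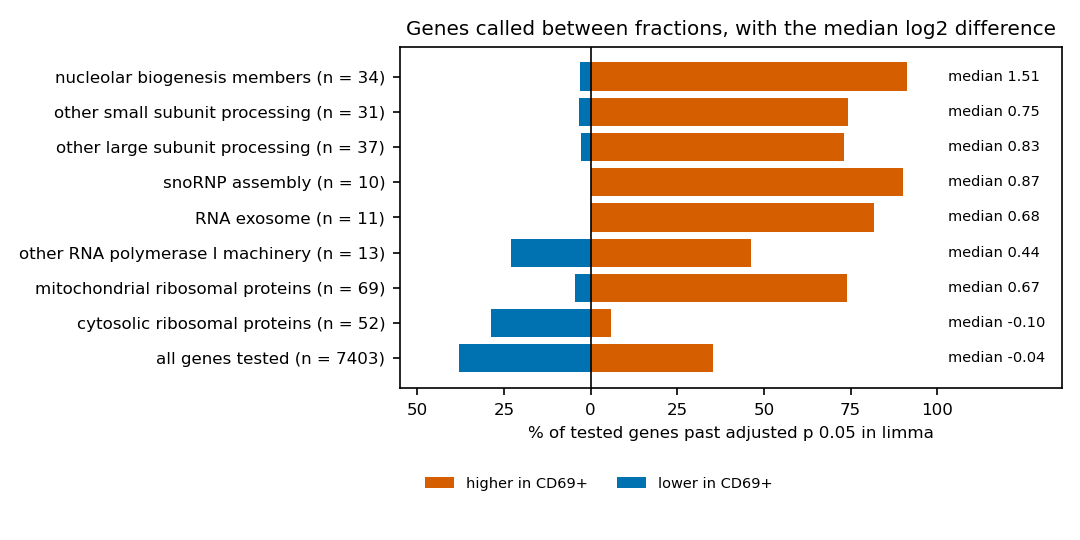
Share of tested genes in each list (y axis) that were higher (right) or lower (left) in CD69+ than in CD69- cells past an adjusted p of 0.05 in limma (x axis, %), with the median log2 difference at the right. The nucleolar biogenesis list has 31 of 34 genes higher, and the cytosolic ribosomal protein list 3 of 52 higher and 15 lower.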

How the data were processed

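Gene expression was measured on 8 Illumina bead arrays, 4 recipient states in 2 fractions. The authors deposited raw bead intensities with a detection p-value per probe, made with BeadStudio 3.1.3 per the submitters' processing notes, and a normalized intensity table whose columns share 1 distribution. The sources used here do not say whether background had been subtracted, and intensity limits the precision at the dim end. The probe names printed in the raw table were out of register: matching its values to the normalized table paired all 25697 probes, and 20106 (78.2%) had carried another name. Probes of the same gene then correlated with a median r of 0.904, against 0.784 under the printed names, across the 8 arrays.

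Intensities were background-corrected with normexp, quantile-normalized and logged with limma 3.58.1 (neqc, offset 16) in R 4.3.3. The brightest probe stood for a gene, and genes detected (p under 0.01) on at least 2 arrays were kept. The limma model held fraction and state, leaving 3 residual degrees of freedom, with Benjamini-Hochberg adjustment over 7403 genes. The 2 fractions of a state carry the same state label, and their deviations from the fraction means correlated in every pair (r of 0.273 naive, 0.209 early tolerant, 0.296 tolerant, 0.345 rejecting), so state was kept as a block. States were compared by a 1.5-fold rule without a test. The genes and lists were chosen with earlier results of these data known. All genes of the set are named, and of each other list up to 4 genes with the largest and 2 with the smallest difference among those called, besides Myc, its network and RNA polymerase I genes. Alternatives covered scaling, background, offset, filter, probe choice, variance trend, the block, the deposited normalized values and leaving out each state.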

Additional observations from a re-analysis of the deposited data

Results flagged for a closer look

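Imp3 is listed because the sign of its difference between fractions was not the same in every state. Its log2 difference between CD69+ and CD69- cells was 0.21 in the naive pair and -0.22 in the tolerant pair, with -0.15 in the early tolerant pair and 0.00 in the rejecting pair. With 1 pair per state this difference between states was not tested. No pair difference of the 34 genes stood apart from the other 3 by Dixon's criterion at 95%. Among the 68 sets of 4 signals, 1 for each gene and fraction, 2 held an array past that criterion, where chance flags about 1 set in 20. Pes1 was low in rejecting CD69+ cells, at 571 against 839.5 to 879 in the other states, and Ftsj3 was low in tolerant CD69- cells, at 171 against 214 to 219. The 4 states are not replicates of a group, so these values are descriptions.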

How the results depend on the processing

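Over 12 alternatives 31 to 34 genes rose, and the median difference of the set was 1.36 to 1.55. The count of 34 came without the detection filter, where all 40 genes with a probe were tested, so it is not all of the 34 genes above. The number of genes that fell went from 1, Emg1, to 0 with median scaling, without the detection filter and without any state (0 to 0 over those 4 fits), while the difference of Emg1 stayed below 0, at -0.23, -0.27 and -0.31 to -0.20. Imp3 turned to 0.0354 with median scaling, and leaving out a state gave -0.123 to 0.0202. With the deposited normalized values the pair medians moved to 1.28 in early tolerant and 1.55 in naive mice. Without the replicate block, that is without pairing by state, 32 genes rose and 1 fell. The numbers past 1.5-fold were small and moved easily. For early tolerant against naive CD69+ cells (1 gene) the count was 0 with no background correction, an offset of 50 or the deposited values and 3 with no filter. For tolerant against naive CD69+ cells (1 gene) it was 0 with the mean of probes and 2 with median scaling or no filter. For rejecting against early tolerant CD69+ cells (3 genes) it was 1, and against tolerant cells (1 gene) 0, with no background correction or the deposited values. In CD69- cells early tolerant and tolerant against naive (0 genes) gave 1 each with no filter, and rejecting against early tolerant (1 gene) gave 0 with median scaling, no background correction, an offset of 50 or the deposited values. The filter alternative tested more genes, and the cause of the other shifts was not tested. In rejecting against naive CD69+ cells the count was 5 to 9. State comparisons rest on 1 array each, dim probes such as that of Ppan are limited by background, and 6 genes with a probe were too dim to test.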
